A study of Drosophila melanogaster with 4 samples.

Results

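Chromosome arm 3L carried 490 of the 2949 Abd-B-GFP binding peaks in the deposited list (16.6%), counted without the 49 peaks of a segment of 875 kb. The members were chosen by position alone, and no score or width entered the choice. The arm as a whole held 539 peaks. The last member before the segment left out ran from 17526539 to 17526757, and the first peak left out started at 17550319. On the other side the last peak left out ended at 18227843 and the first member started at 18614274. The segment had 56.0 peaks per Mb, against 20.8 per Mb on the rest of the arm. All positions are on FlyBase release 5.

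The peaks come from chromatin immunoprecipitation sequencing (ChIP-seq) of Drosophila melanogaster at the wandering L3 larval stage. All libraries, 2 of ChIP DNA and 2 of input DNA, are of the strain Abd-B-GFP, with the genotype w; PBac{y[+]-attP-3B}VK00037 and sex not recorded. Each has a genomic Abd-B transgene whose stop codon was exchanged for GFP, and the ChIP used the rabbit polyclonal antibody GFP ab290. The genotype label names no loss of the strain's own Abd-B. The labels mention no dissection of the larvae, and their collection protocol names the stock y; bw cn sp, which differs from the strain label.

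Abd-B is the most posterior Hox transcription factor of the fly. It gives the rear abdominal segments and the genitalia their identity, and binds DNA through a homeodomain, often together with cofactors. Its own gene lies in the bithorax complex on 3R, and the Antennapedia complex also lies on 3R, so the peaks on 3L lie on another arm than the Hox genes themselves. Abd-B acts mainly in posterior cells, whereas chromatin of larvae adds up many tissues.

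The list gives each peak a start, an end and 1 score, with no value for any library. No replicate error, depth or fold over input can be had from it. The comparisons below are therefore descriptions of 1 list without a test, and a stretch without a peak cannot be called unbound. The score is the authors' own, from their peak caller, with no scale named, and serves only to rank peaks within the list. Which genes lie under the peaks was not analysed here, because the gene table used here belongs to release 6, and no sequence is shown.

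The peaks of 3L were mostly narrow. Their median width was 333.5 bp, with quartiles at 257 and 466 bp, and 12 of them had the smallest width of 200 bp. The median score was 12.9, with quartiles at 10.3 and 19.1 and a range from 6.38 to 156. A score of 10 or less was given to 106 of the 490 peaks (21.6%), and a score above 50 to 19 (3.88%). The share above 50 was 3.82% on 2L, 3.40% on 2R, 3.03% on 3R and 5.83% on X. Together the peaks covered 198 kb, or 0.839% of the 23.6 Mb considered. Among the 737 highest-scoring peaks of the whole list there were 88 from 3L, which is 18.0% of the 3L peaks and less than the share of 23.4% on 2L, 19.3% on 2R and 23.3% on X. On 3R that share was 17.6%, close to that of 3L. The other arms were taken whole in these comparisons. Arm 4, with only 20 peaks, was not set beside 3L here or below. Of its peaks 25.0% scored above 50 and 60.0% were among the 737. With nothing left out, 18.7% of the 3L peaks were among the 737, and 4.27% scored above 50.

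The highest score on 3L belonged to a peak that ranked 25 by width among the members. This peak (18752114 to 18752836) was 723 bp wide and scored 156, which was 12.1 times the median of the 3L peaks and 1.63 times the next score. In the whole list 9 peaks scored higher. Its nearest neighbour lay 5.95 kb to the right, and on the left no peak lay within 137 kb. It was the only member above a score of 100.

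A peak from 10318164 to 10318667 came next, with a score of 95.9 and a width of 504 bp, the smallest among the 10 highest scores. It stood 82.2 kb from its left and 6.36 kb from its right neighbour. The peak from 20815444 to 20817582 scored 90.9 and was 2139 bp wide, the only peak among both the 10 highest scores and the 5 widest of 3L. It was also isolated, with 36.6 kb to the left and 75.4 kb to the right.

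The next high scores were 80.8 from 17480101 to 17480646 and 78.9 from 11546137 to 11546692. Neither had another peak within 5 kb. The first of them lay 65.7 kb beyond its left neighbour and 45.9 kb before its right one. A peak from 2823307 to 2824520, 1214 bp wide, scored 77.9 and had a neighbour 1.83 kb away.

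Of the 4 remaining peaks among the 10 highest, 2 formed a pair of their own. The left one, from 11001929 to 11002612, scored 60.6. The right one, from 11003358 to 11004072, scored 65.7 and began 745 bp further on. No other pair of successive peaks on 3L had both scores among the 10 highest. The others ran from 2243878 to 2244628 (score 63.2) and from 22817658 to 22818302 (score 58.5), each with a lower peak within 2 kb. In all, 5 of the 10 highest-scoring peaks had a neighbour within 5 kb, against 50.6% of all 3L peaks. Of the 10, 1 lay in the 5 fullest windows described next and 4 lay in the pair of windows from 10 to 12 Mb that follow them in number of peaks.

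Peaks were spread unevenly along 3L. Over the 22 whole windows of 1 Mb the median was 21 peaks, with quartiles at 13 and 29.8. The 5 fullest windows held 169 peaks, which is 34.5% of the members in 21.2% of the length. At the other end, 4 whole windows held 10 peaks or fewer. On whole arms, with nothing left out, the fullest window held 43 peaks on 3L, 33 on 2L, 48 on 2R, 89 on 3R and 90 on X. On 3L that window was then from 17 to 18 Mb, which includes part of the segment left out.

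The window from 16 to 17 Mb was the fullest, with 37 peaks. Which window comes first depended on where windows start: shifted by 0.5 Mb, the fullest was from 10.5 to 11.5 Mb with 41 peaks, tied with 1 other. From 16 to 17 Mb there was also the largest share of peaks in runs among the 5 fullest, with 26 of 37 peaks (70.3%) at most 5 kb from a neighbour, in 9 runs. Its median score of 14.8 was the highest of those 5 windows, and 10 of its peaks were among the 737 highest-scoring of the list. Its strongest peak, from 16327965 to 16328437, scored 56.6.

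The window from 21 to 22 Mb held 35 peaks, 21 of them in 9 runs, and its highest score was 39.3. The window from 19 to 20 Mb held 34 peaks with a highest score of 35.3, so neither window had a peak scoring above 50. From 8 to 9 Mb there were 32 peaks, of which 14 lay in 4 runs, a smaller share (43.8%) than in the other full windows. The window from 22 to 23 Mb held 31 peaks with the widest median of the 5, 420 bp.

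Next in number came 2 adjoining windows, from 10 to 11 Mb with 30 peaks and from 11 to 12 Mb with 29. In each of them 19 peaks lay in runs. The window from 11 to 12 Mb had 10 peaks among the 737 highest-scoring of the list, as many as the fullest window. Among windows with few peaks, that from 7 to 8 Mb held 9, with no score above 14.8, and that from 9 to 10 Mb also held 9, with no score above 19.7. From 14 to 15 Mb there were 10 peaks and none of them lay in a run. Beside the segment left out, what remained between 17 and 18 Mb held 20.2 peaks per Mb, and what remained between 18 and 19 Mb held 24.1. Over the whole windows, Spearman's rho of the number of peaks and their median score was -0.22 (22 windows of the same list, given as a description). These include the window from 23 to 24 Mb, which had the fewest peaks, 2, and the highest median score, 35.1.

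**Figure D1:**
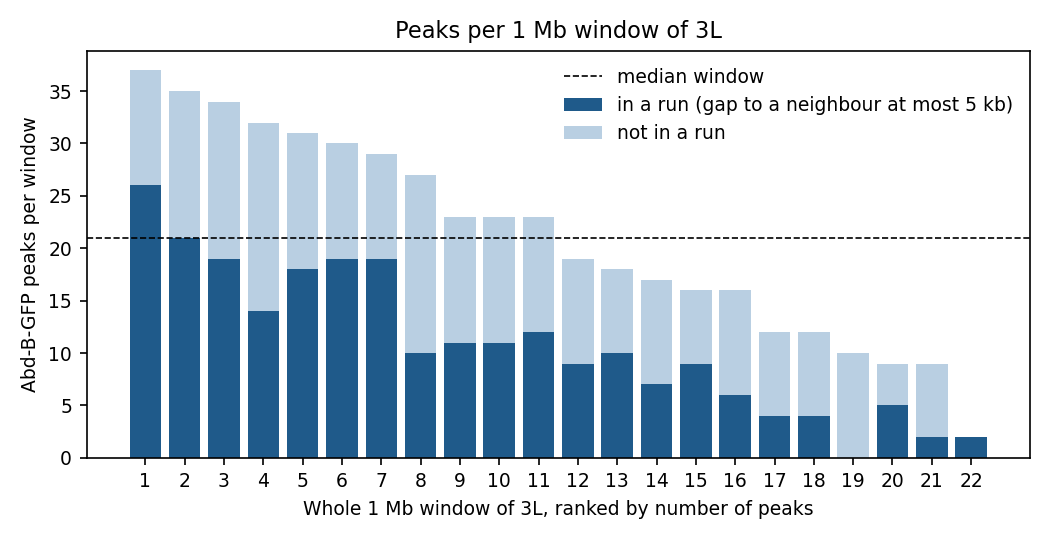
Each bar is a whole 1 Mb window of 3L, ranked by its number of Abd-B-GFP peaks, with peaks in runs in dark and the others in light blue; the dashed line is the median window. The fullest window holds 37 peaks, 26 of them in runs, and the median is 21.

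Towards the centromere, a full stretch was followed by one with few peaks. On 3L the centromere lies beyond the highest coordinates. From 19 to 23 Mb there were 123 peaks, or 30.8 per Mb against 18.7 for the other members, and 3 of the 5 fullest windows lay there. The value of 18.7 leaves out the segment with 56.0 peaks per Mb and includes the sparse end beyond 23 Mb. Beyond 23 Mb there were 3 peaks up to the last one, which ended at 24457980. The gap from 22941949 to 23935656, 994 kb, was the largest on the arm, and the next largest, 516 kb, followed at 23940853. The 3 peaks beyond 23 Mb were strong for the arm, with scores of 33.0, 37.2 and 29.1, each above the upper quartile of 19.1. How well reads can be placed within these large gaps was not analysed here.

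Peaks from 19 to 23 Mb had a higher median width than those elsewhere on 3L. Their median width was 380 bp against 324 bp, while their median score was 12.2 against 13.0. The widths overlapped broadly, with quartiles at 253.5 and 485.5 bp there and at 257.5 and 455.5 bp elsewhere. When the 3L peaks were divided at the quartiles of their score, the highest-scoring class had a median width of 618.5 bp in the stretch (20 peaks) and 475 bp elsewhere (100 peaks). In the next class the medians were 398 and 331 bp, and in the one below 353 and 288 bp. In the lowest-scoring class the order turned, with 253 against 277.5 bp. The stretch was singled out after its values had been seen, and the order of the scores depends on its limits: over the last 5 Mb of the arm the median score was 13.2, against 12.9 on the rest.

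**Figure D2:**
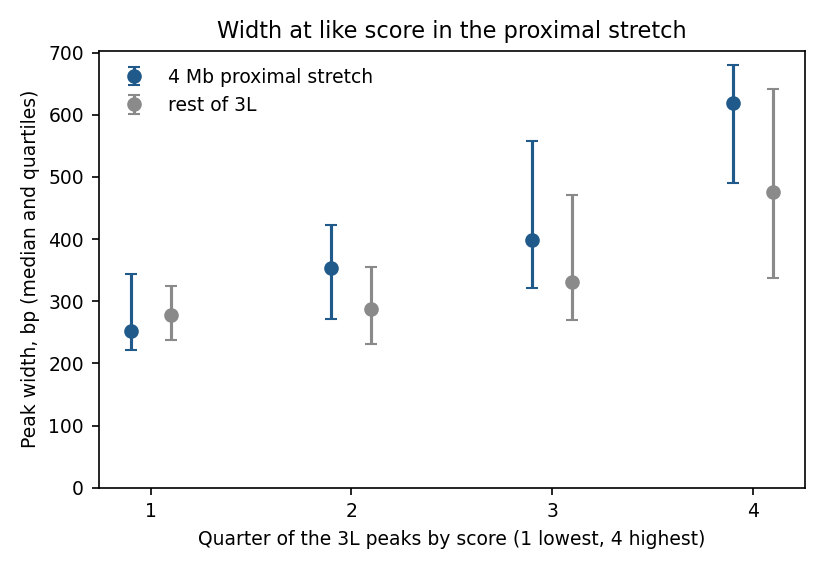
Median peak width in bp with its quartiles (bars), for 3L peaks in 4 classes cut at the quartiles of their score; blue is the stretch from 19 to 23 Mb and grey the rest of 3L. The blue median is higher in the upper 3 classes and lower in the lowest, and the quartile ranges overlap in every class.

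The 5 Mb next to the centromere were also compared with the rest on the other arms. Those arms were taken whole, whereas the rest of 3L lacked the segment left out. On 3L the median width was 388 bp there and 324 bp on the rest. It was 351 against 340 bp on 2L, 370 against 331 bp on 2R and 353 against 340 bp on 3R. On X the order was the other one, with 306 against 369 bp. On each of these arms, 3L included, both medians lay within the quartile ranges of both stretches. On 3L the quartiles were 269 and 521 bp there and 256 and 456 bp on the rest. The differences on 2L and 3R were the smallest, and on 3R the upper quartile went the other way, with 483.5 against 505.5 bp. The median score of the proximal peaks was 16.6 against 13.5 on 2L, 13.3 against 13.4 on 2R, 13.5 against 13.2 on 3R and 13.4 against 14.2 on X. None of these differences was tested.

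Gaps between neighbouring peaks were very unequal. The smallest was 75 bp, the median 15.5 kb and the quartiles 2.97 and 59.7 kb. Of the 488 gaps, 55 (11.3%) were under 1 kb and a further 96 (19.7%) went up to 5 kb. At the other end 68 gaps exceeded 100 kb, and these together made up 58.5% of the length considered. Besides those near the centromere, the largest gaps were 480 kb from 9755551, 420 kb from 11696961 and 401 kb from 13492975. A neighbour within 10 kb was found for 302 of 490 peaks (61.6%). The share was 57.0% on 2L, 62.6% on 2R, 61.7% on 3R and 60.4% on X. The median gap was 20.3 kb on 2L, 15.1 kb on 2R, 12.5 kb on 3R and 13.2 kb on X. With nothing left out, the share on 3L was 62.9% and the median gap 13.9 kb.

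**Figure D3:**
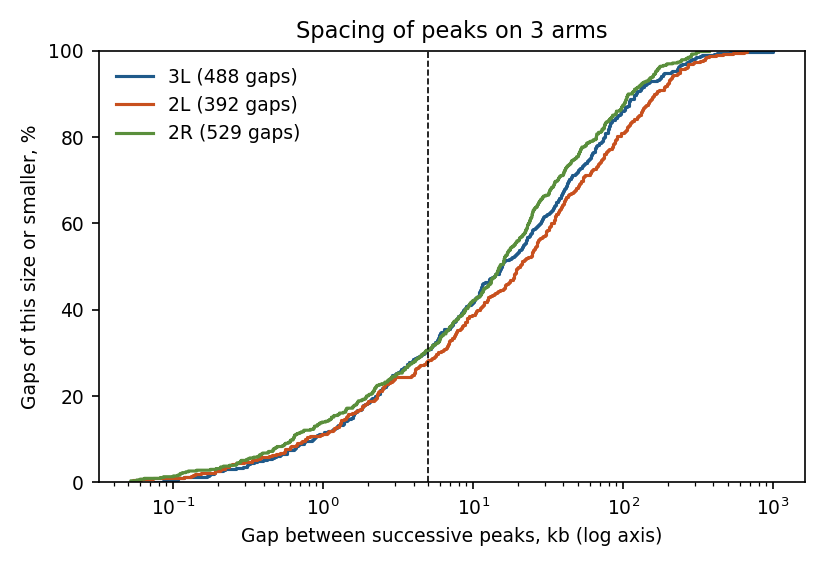
Cumulative share of gaps between successive peaks (vertical axis, percent) by gap size in kb (log axis) for 3L, 2L and 2R; the dashed line marks 5 kb, the largest gap within a run. The 3L and 2R curves lie close together, with medians of 15.5 and 15.1 kb, and 2L has larger gaps, with a median of 20.3 kb.

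A run was a series of peaks with no gap above 5 kb. On 3L 248 peaks (50.6%) lay in 97 runs, and 242 stood alone. Most runs were short, with 62 of 2 peaks, 19 of 3, 14 of 4 and 1 each of 5 and 6. Runs of 5 or more were thus 2 among the members. On whole arms, with nothing left out, they numbered 4 on 3L, 3 on 2L, 4 on 2R, 8 on X and 12 on 3R. The longest run of the whole arm held 12 peaks on 3L, 7 on 2L and on 2R, 33 on X and 55 on 3R.

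The run of 6 peaks lay from 13481761 to 13492975, a length of 11.2 kb, and was made of weak peaks. Its scores ran from 8.77 to 15.4 with a median of 10.6, below the arm's median of 12.9. In order along the arm the scores were 8.77, 15.4, 9.36, 11.3, 9.94 and 13.8. The peaks in its middle, from 13486955 to 13488561, were only 189 and 188 bp apart. On its right the gap of 401 kb followed.

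The run of 5 peaks, from 16166962 to 16176150, was stronger. Its scores were 26.3, 9.11, 29.5, 12.7 and 19.8, and it covered 9.19 kb. It was not alone: a run of 4 ended 5.87 kb before it, at 16161089, and a run of 3 began 7.68 kb after it, at 16183830. With gaps up to 10 kb these formed 1 group of 12 peaks from 16157472 to 16189098, 31.6 kb long. This was the longest group among the members at that setting, and it lay in their fullest window. The nearest peaks outside it were 112 kb away on the left and 13.9 kb on the right. Its scores ranged from 7.38 to 33.6 with a median of 19.9, and its median width was 484.5 bp. Of its 12 peaks 8 were among the 1474 highest-scoring of the list, whereas 43.5% of all 3L peaks were. The strongest and widest peak of the group was its last, from 16188302 to 16189098, with 797 bp and a score of 33.6.

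**Figure D4:**
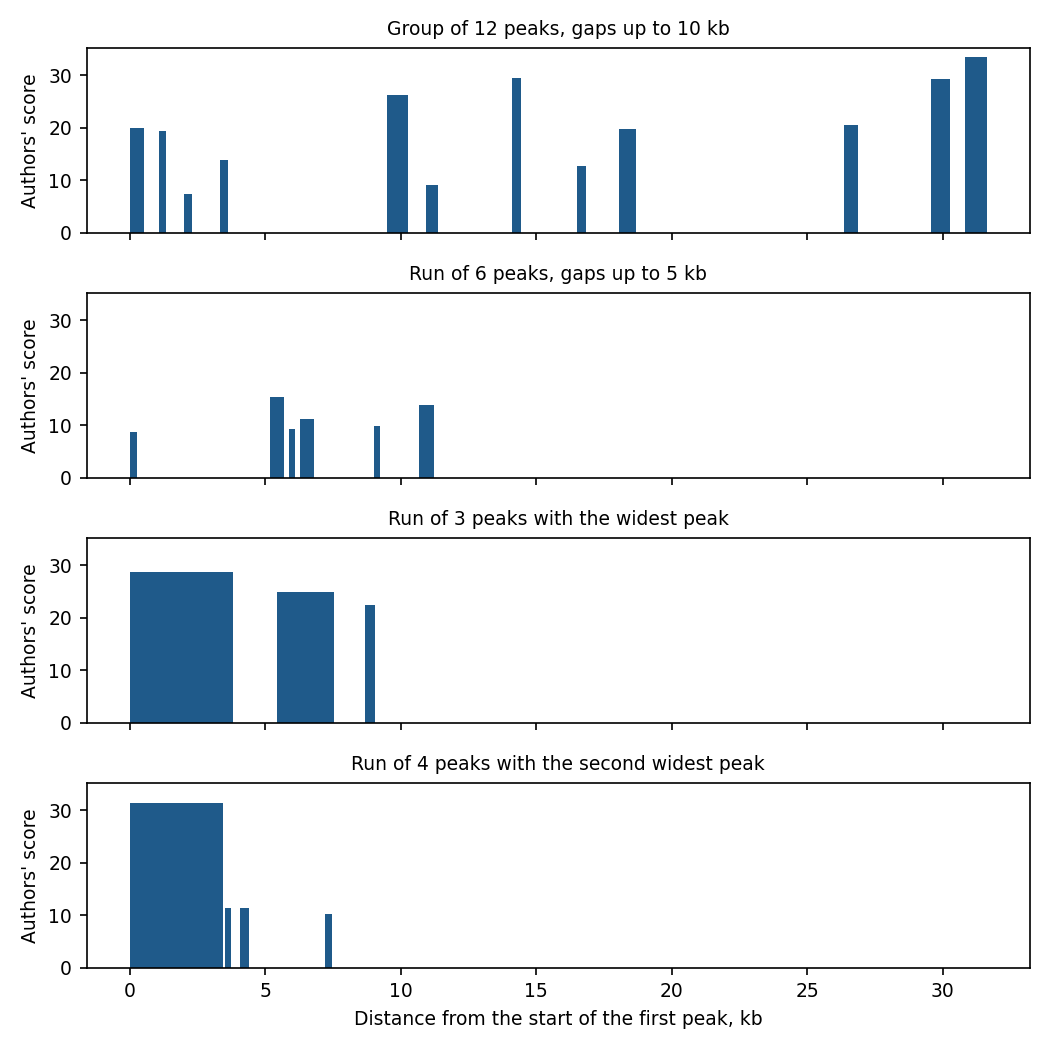
Each bar is a peak, placed by its distance in kb from the start of the first peak, as wide as the peak and as high as its authors' score; the panels show the group of 12, the run of 6 and the runs that hold the widest and the second widest peak. The group of 12 reaches scores of 33.6, the run of 6 stays at or below 15.4, and the widest peak takes 3802 bp at a score of 28.6.

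The 14 runs of 4 peaks differed in strength and in packing, and the following were chosen after their values had been seen. Their median scores ranged from 9.50 to 27.1 and their lengths from 3.39 to 11.4 kb. The strongest by median lay from 10845504 to 10851008, with a highest score of 46.1. Another in the same window, from 10729944 to 10736206, had a median score of 21.5. The densest lay from 21244478 to 21247864, where peaks covered 62.8% of 3.39 kb and the scores stayed between 16.1 and 21.2. The sparsest, from 1091278 to 1101046, had 15.4% of its length under peaks and no score above 13.8.

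Peaks in runs and peaks alone had similar scores. The median was 12.4 in runs and 13.2 outside them, with quartiles of 10.0 and 19.1 against 10.7 and 18.8. Widths were 350.5 bp in runs and 320 bp outside them. Members of runs of 4 or more had a median score of 13.8, but none scored above 46.1, while the highest score outside runs was 156. Among the 737 highest-scoring peaks were 18.6% of the peaks in runs and 17.4% of those outside. Scores of neighbours were at most weakly related at gaps up to 5 kb. Across the 151 pairs with a gap up to 5 kb, Spearman's rho of their scores was 0.13, and the scores differed by a median of 1.39 times. Across the 337 pairs further apart, rho was -0.05 and the median difference 1.51 times. By gap size, rho was 0.21 under 1 kb (55 pairs), 0.07 from 1 to 5 kb and 0.04 over 5 to 10 kb. It was -0.01 over 10 to 50 kb, -0.32 over 50 to 100 kb (68 pairs) and 0.08 over 100 kb. The rho largest in size thus belonged to a class of distant pairs. These pairs share peaks and a list, so the values are descriptions.

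Width followed score across the arm, with a broad spread. Spearman's rho over the 490 peaks was 0.52, against 0.63 on 2L, 0.61 on 2R, 0.57 on 3R and 0.59 on X. It is given as a description, since both values come from the same calls. Median widths in the 4 score classes were 273, 298.5, 359 and 495 bp from the lowest to the highest. No peak of the lowest class was wider than 531 bp. Peaks above 1 kb numbered 9 (1.84%), and 5 of them exceeded 2 kb.

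The widest peaks stood apart from the rest at their score. The widest, from 11687903 to 11691704, measured 3802 bp at a score of 28.6, which was 7.68 times the median width of the highest-scoring class it belongs to. The fifth widest, of 2099 bp from 11693337 to 11695435, followed it after 1.63 kb with a score of 24.9, and a peak of 391 bp (score 22.3) closed the run at 11696961. These 3 peaks stood 81.3 kb from the next peak on the left and 420 kb from the next on the right.

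The second widest peak, from 8013331 to 8016768, measured 3438 bp with a score of 31.4. It opened a run of 4 whose other peaks were narrow and weak, 218, 331 and 262 bp wide with scores of 11.5, 11.4 and 10.3. The first of these began 90 bp after the wide peak ended. The peak from 22093428 to 22096041 was 2614 bp wide with a score of 45.6 and stood alone, 21.5 kb and 88.3 kb from its neighbours. With the peak of 2139 bp from 20815444 already described, 3 of the 5 widest lay in runs and 2 did not. After them the next widths fell to 1215 bp, from 56758 to 57972 at the far end of the arm, and 1214 bp.

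**Figure D5:**
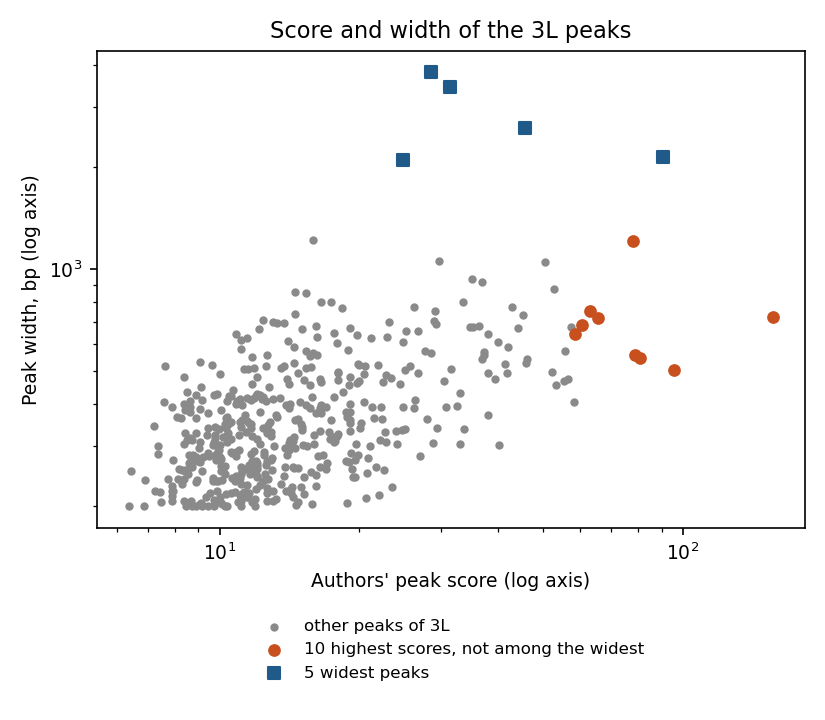
Width in bp against the authors' score for the 490 peaks of 3L, both on log axes; blue squares are the 5 widest, orange points the other peaks among the 10 highest scores. The 5 widest exceed 2 kb at scores from 24.9 to 90.9, while the highest score, 156, belongs to a peak of 723 bp.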

How the data were processed

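The data were 1 peak list for the whole series, in which the authors deposited a start, an end and 1 score for each peak. Per the file headers it is on FlyBase release 5 and names MACS as its source. BWA, MACS2, CASAVA (1.7.0.2, 1.7.0.3) and the build BDGP5 stand without parameters in the submitters' processing notes. Not given in the sources used here are the control used for calling, any pooling of replicates and the scale of the score. The lowest start in the file was 0, so 1 was added to starts. Groups came from the sample titles, which all contain the term vMock without explaining it.

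Analysis used scipy 1.17.1, pandas 2.3.3 and numpy 2.4.6 under Python 3.11.15. The extent of an arm was the end of its last peak. Windows of 1 Mb started at whole Mb and took peaks by midpoint. Runs joined gaps up to 5 kb, and neighbour shares counted any listed peak of the arm within 10 kb. Run and window counting was tested on simulated data. The peaks named are the 10 highest scores, the 5 widest, the runs of 5 or more and the 5 fullest windows; others were chosen after their values were seen. The members and the analyses were chosen with earlier results of these data known. Alternatives were the 1474 and 737 highest-scoring peaks of the list, merging of peaks under 1 kb apart, other gaps, distances and window positions, and the left-out segment included. Planned descriptions of genes, gene lists and motifs under peaks need a release 5 annotation or genome and were not run.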

Additional observations from a re-analysis of the deposited data

How the results depend on the processing

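No paired analysis was possible because the list holds no value per library, and no replicate could be left out. With the 1474 highest-scoring peaks of the list, 213 members remained, the fullest window held 19 peaks, runs numbered 24, 37.1% had a neighbour within 10 kb, the median width was 430 bp, the median score 20.0 and rho of score and width 0.45. With the 737 highest-scoring, these were 88, 10, 11, 28.4%, 543 bp, 33.3 and 0.39, and the longest run held 3 peaks. These sets are cut on the score, which itself lowers counts and raises score and width. Of the 5 fullest windows, 4 remained among the 5 fullest with the first set and 2 with the second. Merging peaks under 1 kb apart gave 53.3% with a neighbour and a rho of 0.50, and all 5 windows remained, although 8 to 9 Mb and 19 to 20 Mb then tied as the fullest, with 30 peaks each. With the left-out segment included the fullest window was from 17 to 18 Mb with 43 peaks, the longest run held 12 peaks and rho was 0.54. Among the members alone, the longest run also held 12 peaks with gaps up to 10 kb. A neighbour within 5 kb was found for 50.6% and within 20 kb for 73.1%. Windows shifted by 0.5 Mb gave a fullest count of 41, from 10.5 to 11.5 Mb, tied with 1 other. The other alternatives run kept counts within 1.5 times and medians within their 95% order-statistic interval. Alternatives on genes under peaks and motifs were not run. Including the left-out segment was added after seeing the data.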
